A study of Mus musculus with 4 samples.

Results

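The proteasome genes of the E10.5 mouse heart were followed through 8 classes of cells. Genes were taken where the symbol was Psm with a letter from a to g and a number, or Adrm1, and where at least 100 unique molecular identifiers (UMIs, one for each captured mRNA molecule) were counted over all barcodes. This kept 49 of 50 such symbols among the 32285 genes of the count tables. Psmb9, with 132 UMIs, lay just inside the limit, and Psmb11, a beta subunit known from the thymus, lay just outside it with 51 UMIs. The members were thus chosen by name and by total UMI count, which is not used below as a result. The 49 genes were 18 of the core, 18 of the cap and 13 activators, inhibitors and assembly chaperones.

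Hearts of C57BL/6J embryos were dissociated with collagenase II, freed of red cells and sequenced with a droplet assay that counts the 3′ end of each mRNA. There were 2 wild-type libraries, named Wt1 and Wt2, and 2 libraries of embryos homozygous for the I383V allele of Cyp51, an enzyme of cholesterol synthesis, named Ho1 and Ho2. The allele had been introduced into the germline with CRISPR/Cas9 and a repair oligo, and the labels list CRISPR/Cas9 as the treatment of all 4 libraries. A single amino acid change leaves the 3′ tag as it is, so the counts do not check the genotype, and the number of hearts in a library is not given in the sources used here.

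The proteasome is the cell's main protease for proteins tagged with ubiquitin. Its core, the 20S particle, is a barrel of alpha and beta rings, and proteolysis takes place inside it at beta subunits. The cap, the 19S particle, binds ubiquitin chains, removes them and unfolds the substrate with a ring of ATPases. Other activators can dock in place of the cap, and in immune cells or after interferon the catalytic beta subunits are exchanged for Psmb8, Psmb9 and Psmb10, the immunoproteasome.

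The count tables held 109893733 and 117034633 UMIs for the Wt libraries and 127018819 and 107377100 for the Ho libraries. Where 4 values follow each other below, they stand in the order Wt1, Wt2, Ho1, Ho2. After filtering, 8908, 7154, 6980 and 6126 cells were used, with a median of 10561, 14215.5, 15658 and 15831.5 UMIs per cell. Wt1 was thus the shallowest library per cell. Between 9 and 28 barcodes of the cells used were shared by any pair of libraries.

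The cells fell into 28 clusters, of which 15 carried enough markers to be placed in 8 classes. Cardiomyocytes formed ventricular-like (Myl2), atrial-like (Stard10) and sinus venosus-like (Shox2) classes. The other classes are called here by their leading marker, Cdh5 of endothelium, Hapln1 of cushion mesenchyme, Crabp1, Upk3b of epicardium and Epcam of epithelium. Myl2 was between 5907 and 6091 counts per 1000000 UMIs (CPM) in the ventricular-like sums and at most 137 CPM in any other class. Stard10 was at least 318 CPM in atrial-like sums and at most 89.3 CPM elsewhere. The separation was weakest for Crabp1 cells, whose marker ranged from 56.8 to 638 CPM between libraries and reached 213 CPM in Epcam cells. The remaining 35.6% of cells were in unnamed clusters. Clusters 18, 19 and 23, unnamed for low depth, had cardiomyocyte genes among their leading genes, such as Myl2, Stard10 and Ttn. Cluster 22, of 547 cells with a median of 14276 UMIs, had the muscle gene Tcap among its own. The 3 cardiomyocyte classes thus do not hold all cardiomyocytes, and what is said of them does not cover these clusters.

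The ventricular-like class held 340, 799, 1251 and 706 cells. The Crabp1 class held 2635, 758, 171 and 1126 cells, so that Wt1 gave most of it and Ho1 the least. Its Wt1 cells were mostly of clusters 8 and 10, with 744 and 919 cells, whereas cluster 12 gave 111 of the 171 cells of Ho1. The Epcam class had 389, 152 and 242 cells in Wt1, Wt2 and Ho2 and none in Ho1, so every value for it rests on 3 libraries. Its clusters 21 and 27 gave 316 and 73 cells in Wt1, 54 and 98 in Wt2 and 203 and 39 in Ho2.

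Ho1 stood apart in other ways. It had 28877 UMIs of Xist and none of the Y-linked genes, whereas the other libraries had between 2 and 5 UMIs of Xist and between 8808 and 9910 of Y-linked genes. In ventricular-like cells the 9 erythroid genes summed to 276 CPM in Ho1 and to between 3.84 and 6.64 CPM in the other libraries, led by the globin Hba-x with 109 CPM. One unnamed cluster of 368 cells came almost wholly from Ho1, with 346 cells. In Ho2 mitochondrial genes took 2.47% of the UMIs of ventricular-like cells, against between 1.59% and 1.65% in the other libraries. Sex and library cannot be told apart in Ho1. The part of these differences in the results was not tested.

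UMIs were summed for each library and class. Levels are given below as CPM scaled by the trimmed mean of M values (TMM), with the standard deviation (SD) over libraries. The assay reads one tag per molecule, so that levels of different genes need no division by length, though the capture of each 3′ end may differ.

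All members were expressed broadly except for a small group. The mean level over the classes was at least 5 CPM for 45 members, and for these the highest class lay above the lowest by a median of 1.40-fold. The ratio was under 1.5 for 30 members, between 1.5 and 2 for 13 and at least 2 for 2, Psmb10 and Psme1. The narrowest with TMM was Psmb5, a catalytic beta subunit chosen here after its values were seen, with a ratio of 1.14. With library totals its ratio was 1.34 and it was not the narrowest. The highest class was the Upk3b class for 16 members and the ventricular-like and Cdh5 classes for 9 each, and the lowest was the sinus venosus-like class for 19. This order is that of TMM. As CPM of all UMIs, which library totals give, the highest class was the Crabp1 class for 17 and the Upk3b class for 12 members, the lowest was the ventricular-like class for 20 and the sinus venosus-like class for 12, and the ratio was under 1.5 for 22 and at least 2 for 5, Psmb10, Psme1, Psmd11, Psmd5 and Psmf1. The highest class was the same on both scales for 23 of the 45 members and the lowest for 17.

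**Figure D1:**
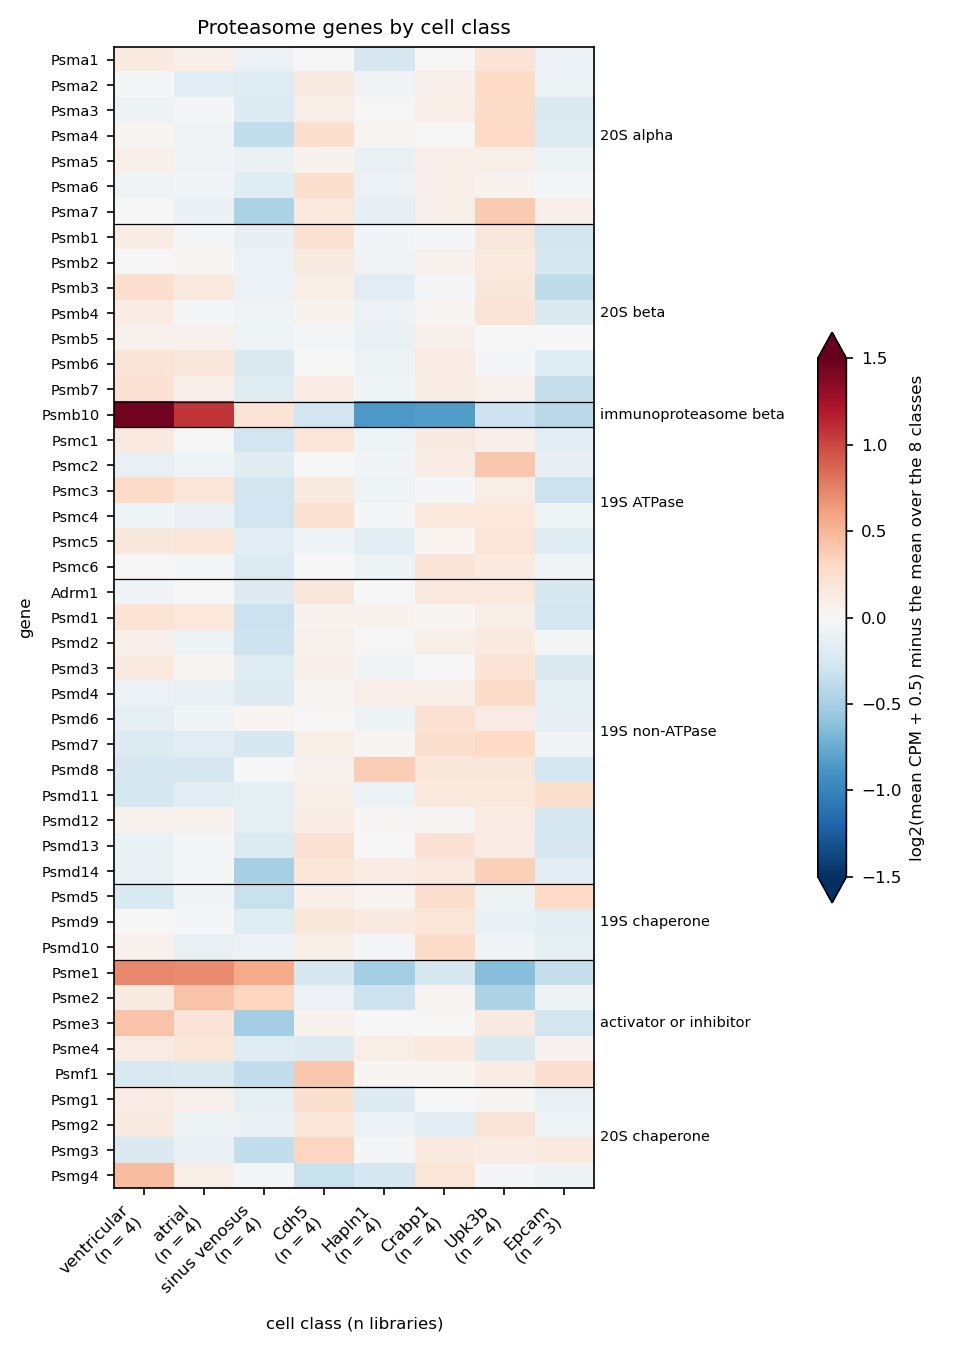
Mean level of the 45 proteasome genes of at least 5 CPM in 8 cell classes, as log2(mean CPM + 0.5) minus the gene's mean over classes, with genes in rows by role and the number of libraries under each class. Red is above and blue below the gene's own mean. Psmb10 and Psme1 are the rows with a ratio of at least 2 between their highest and lowest class on this TMM scale.

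Among the alpha subunits, which form the outer rings and the gate of the core, Psma7 was the most abundant. Its level was 1154 and 1086 CPM in Wt and 1163 and 1034 CPM in Ho in Upk3b cells, and 600, 603, 636 and 587 CPM in sinus venosus-like cells. The ranges did not overlap, with means of 1109 ± 60.5 and 607 ± 20.8 CPM (SD, n = 4) and a ratio of 1.83. The ratios of the 7 alpha subunits above 5 CPM ran from 1.15 to 1.83.

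Psma8, the alpha subunit of the testis proteasome that can replace Psma7, was near the limit of detection. It was at 3.07, 3.68, 3.04 and 3.54 CPM in Cdh5 cells and at 3.52, 3.28, 2.82 and 3.05 CPM in Hapln1 cells. In ventricular-like cells it was at 0.916, 2.34, 1.42 and 1.39 CPM, below each of those values. Sinus venosus-like cells had 0, 1, 0 and 4 UMIs of it. Against ventricular-like cells the log2 difference was 1.11 in Cdh5 cells (edgeR, adjusted p = 0.000659) and 1.04 in Hapln1 cells (edgeR, adjusted p = 0.0020).

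The constitutive beta subunits varied little. Psmb1 was the most abundant of the 7, with a mean over classes of 659 CPM, and Psmb7, which carries the trypsin-like activity, the least, with 162 CPM. Psmb7 was at 188 CPM in ventricular-like cells, its highest class with TMM, and at 127 CPM in Epcam cells, its lowest. With library totals its highest class was the Crabp1 class, at 191 CPM, and its lowest the sinus venosus-like class, at 147 CPM.

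Psmb10, the immunoproteasome counterpart of Psmb7, had the widest range of any member above 5 CPM. In ventricular-like cells its level was 74.8 and 83.4 CPM in Wt and 84.4 and 72.3 CPM in Ho. In atrial-like cells it was 59.2, 61.5, 67.4 and 55.0 CPM, and in sinus venosus-like cells 36.2, 28.5, 35.1 and 32.4 CPM. The 3 cardiomyocyte classes were thus ordered without overlap, and every one of their sums lay above every sum of the other classes with TMM. With library totals 1 sum crossed, as Epcam cells of Wt1 had 30.6 CPM and sinus venosus-like cells of Wt2 had 30.4 CPM.

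The remaining classes had means of 23.2 ± 1.71 CPM in Cdh5, 23.0 ± 1.59 in Upk3b, 21.3 ± 7.29 in Epcam (n = 3), 15.7 ± 3.69 in Crabp1 and 15.5 ± 0.994 CPM in Hapln1 cells (SD, n = 4 unless given). Neighbours in this order differed by less than the larger SD of the pair. The ventricular-like mean of 78.7 ± 6.06 CPM was 5.07-fold the Hapln1 mean. The log2 difference from ventricular-like cells was -0.38 in atrial-like cells (SE 0.104, edgeR, adjusted p = 0.00785), -1.26 in sinus venosus-like cells and between -1.77 and -2.35 in the other 5 classes. With library totals in place of TMM it kept its sign in all 7 classes, at -0.27 for atrial-like and -1.96 for Hapln1 cells.

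The other immunoproteasome subunits were almost absent from these classes. Psmb8 had no UMI in ventricular-like, sinus venosus-like, Upk3b or Epcam cells, and 4 UMIs in all of the atrial-like sums, each from Wt2. In Cdh5 cells it had 4, 2, 10 and 3 UMIs. Psmb9 had 0, 3, 1 and 0 UMIs in ventricular-like cells and 3, 9, 12 and 2 UMIs in Cdh5 cells. Psmb10 had 408 to 1898 UMIs in the ventricular-like sums, where its usual partners were at or near 0. The 6 macrophage markers, among them C1qa and Csf1r, summed to between 0.461 and 4.86 CPM in ventricular-like cells.

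The gene for Psmb10 lies on the minus strand of chromosome 8 (GRCm38). The bases before its annotated start are shown because no other member above 5 CPM was so uneven between classes. They come from the RefSeq promoter window on GRCm38.p6 (chr8:105938445-105938642, minus strand), read 5′ to 3′ toward the gene and ended before the gene's first base.

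Psmb10: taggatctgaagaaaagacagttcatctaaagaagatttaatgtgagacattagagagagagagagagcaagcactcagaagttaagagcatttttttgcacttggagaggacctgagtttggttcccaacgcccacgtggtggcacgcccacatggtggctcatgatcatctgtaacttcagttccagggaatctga

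Promoter windows, from 250 bases before to 50 after the start, were found for 41 of the 49 members among 32851 RefSeq windows. They were searched on both strands for 3 short motifs. A member was counted if any window of its symbol held a match, whereas the share of all windows takes each window by itself. The counts and shares below are thus unlike measures. The core of the antioxidant response element, TGANNNNGC, to which Nfe2l1, the factor known to raise proteasome genes when proteolysis fails, binds, occurred in 23 of the 41 and in 41.3% of all windows. The interferon-stimulated element core, which is GAAA, 2 bases of any kind and GAAA, occurred in 5 of 41, namely Psmb3, Psmd4, Psmd9, Psme1 and Psmg4, and in 3.44% of all windows. CCAAT occurred in 14 of 41 and in 37.4% of windows. No motif contains another, and none of the 3 occurs in the window of Psmb10, which says only that these letters are not there.

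Psme1, the alpha chain of the activator PA28, was high in the same 3 classes. It was at 244, 280, 281 and 234 CPM in ventricular-like cells, at 255, 268, 269 and 241 CPM in atrial-like cells and at 245, 214, 221 and 245 CPM in sinus venosus-like cells. These 3 classes overlapped one another. Every other class was lower, with means of 133 ± 16.8 CPM in Crabp1, 133 ± 5.87 in Cdh5, 123 ± 10.8 in Epcam (n = 3), 110 ± 6.36 in Hapln1 and 101 ± 9.18 CPM in Upk3b cells (SD, n = 4 unless given).

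No sum of the 3 cardiomyocyte classes overlapped a sum of the other 5 for Psme1, which among the 45 members was otherwise seen for Psmb10 with TMM. With library totals it was seen for Psme1 alone, whose lowest cardiomyocyte sum was 203 CPM and highest other sum 178 CPM. The log2 difference from ventricular-like cells was -1.35 in Upk3b (SE 0.0816), -1.24 in Hapln1 and -0.97 in Cdh5 cells (edgeR, adjusted p = 5.83e-14, 7.24e-14 and 7.96e-12). It was -0.01 in atrial-like cells (edgeR, adjusted p = 0.960) and -0.16 in sinus venosus-like cells (edgeR, adjusted p = 0.0919). The sign of the last 2 turned with library totals, to 0.10 and 0.13, and the sign of the others did not.

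Psme2, the beta chain of PA28, was less uneven. It was at 233, 240, 235 and 217 CPM in atrial-like cells and at 186, 204, 198 and 167 CPM in ventricular-like cells, without overlap. The log2 difference between these was 0.29 (edgeR, adjusted p = 0.000501). Upk3b cells were lowest with 124 ± 10.2 CPM (SD, n = 4), a log2 difference of -0.61 from ventricular-like cells. The lower values in Cdh5 and Epcam cells, at -0.22 and -0.21 with TMM, turned to 0.02 and 0.30 with library totals. Psme2b, a near-identical copy of Psme2 that can share its reads, was between 0.255 and 1.01 CPM in every class and its level is uncertain.

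Psme3, the nuclear PA28 gamma, was highest in ventricular-like cells, at 38.8, 37.0, 34.0 and 32.4 CPM. It was lowest in sinus venosus-like cells, at 16.6, 18.5, 17.6 and 20.9 CPM. The 2 groups did not overlap and the log2 difference was -0.92 (edgeR, adjusted p = 7.69e-08). Psme4, the large activator PA200, was nearly level, from 46.7 CPM in atrial-like to 35.2 CPM in Upk3b cells with TMM and from 50.8 CPM in Epcam to 34.7 CPM in Upk3b cells with library totals. Psmf1, an inhibitor of the core, was highest in Cdh5 cells with 25.3 ± 1.43 CPM and lowest in sinus venosus-like cells with 14.6 ± 1.97 CPM (SD, n = 4) with TMM. With library totals both ends turned, to 27.1 CPM in Epcam and 13.5 CPM in ventricular-like cells.

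**Figure D2:**
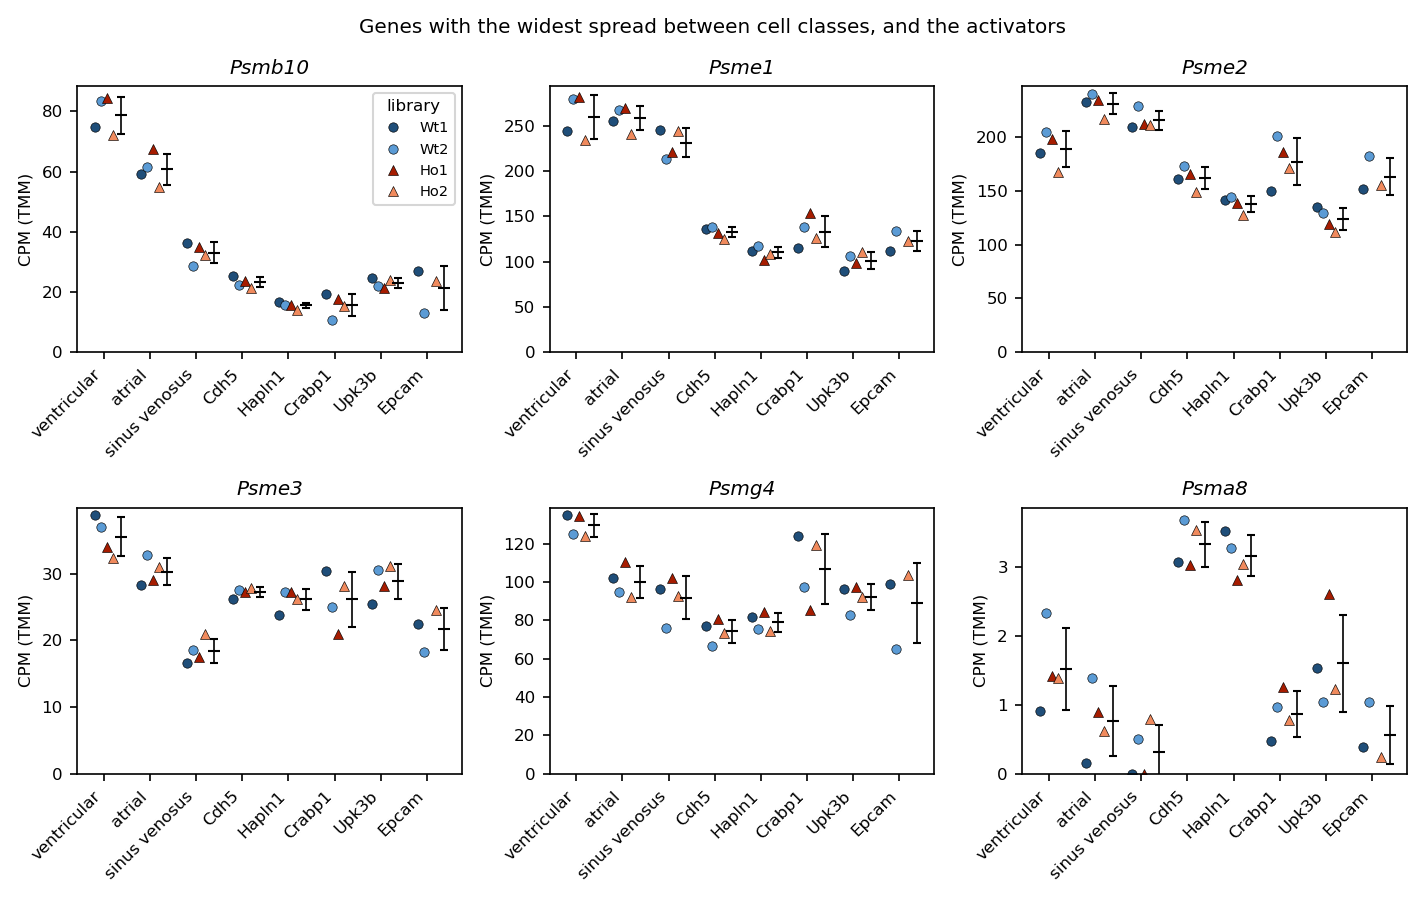
Level in CPM scaled by TMM of 6 proteasome genes in each of the 8 cell classes, with 1 point for each library (circles Wt, triangles Ho) and the mean ± SD over libraries as a black bar. Psmb10 and Psme1 are higher in every sum of the 3 cardiomyocyte classes on the left than in any sum of the other classes on this TMM scale, which for Psmb10 does not hold with library totals.

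The subunits of the cap stood closer together. Psmc5 was the most abundant of the 6 ATPases with a mean over classes of 297 CPM and Psmc1 the least with 101 CPM. Psmd8 was the most abundant of the non-ATPase subunits by this mean, whereas Psmd7 had the most UMIs of the cap when all sums were added, 101740. Psmd8 was at 280, 267, 262 and 237 CPM in ventricular-like cells and at 426, 410, 384 and 391 CPM in Hapln1 cells, without overlap. The log2 difference was 0.62 (SE 0.0622, edgeR, adjusted p = 1.14e-09) and 0.97 with library totals. Psmd3, a scaffold subunit of the lid, was the least abundant with 76.4 CPM.

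Psmd14, the deubiquitinase of the lid and named here after its values were seen, had the widest ratio of the cap, with 174 CPM in Upk3b and 96.0 CPM in sinus venosus-like cells. With library totals the widest was Psmd11, with 230 CPM in Epcam and 112 CPM in ventricular-like cells.

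Of the assembly chaperones, Psmg1 was the most abundant with a mean of 117 CPM and Psmd5, which holds an ATPase before the cap is built, the least with 27.4 CPM. Psmg4, a chaperone of the core and also named after its values were seen, was at 135, 125, 134 and 124 CPM in ventricular-like cells and at 76.8, 66.5, 80.5 and 73.3 CPM in Cdh5 cells. Its log2 difference between the 2 was -0.80 (edgeR, adjusted p = 4.66e-09). The remaining classes lay between these with TMM, and with library totals Crabp1 cells, at 117 CPM, were above ventricular-like cells, at 108 CPM.

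Each class was then compared with the ventricular-like class in one edgeR fit over 14200 genes with the library as a term, in which 46 members were tested. Psmb8, Psmb9 and Psme2b did not pass the filter on low counts. The members and the genes of the pathway were left out of the genes used for clustering, but the classes still come from the same cells, so the calls below describe the classes and are no independent test of them.

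Atrial-like cells were the most like ventricular-like cells, with 1 member called higher (12.2% of all genes were) and 7 lower (14%). Psme2 was the one that was higher. The 8 calls were 2 to 4 when any one library was left out. In sinus venosus-like cells 3 members were called higher (21.4% of genes) and 24 lower (25.6%), among them 5 of 8 alpha, 5 of 7 beta and 4 of 6 ATPase subunits. In Epcam cells 4 were higher (30.8%) and 21 lower (30.6%), with 6 of 7 beta subunits lower and none higher.

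In Cdh5, Crabp1 and Upk3b cells more members were called higher than lower with all 4 libraries used. The shares called higher were 30.4%, 34.8% and 34.8% of the members, near those of all genes in Cdh5 and Crabp1 cells. In Cdh5 cells 14 members were higher (33.7% of genes) and 10 lower (35.5%), in Crabp1 cells 16 were higher (33.4%) and 10 lower (33.8%), and in Upk3b cells 16 were higher (27.8%) and 8 lower (30.2%). Of the 12 non-ATPase subunits of the cap, 6, 8 and 8 were called higher in these 3 classes and 0, 2 and 0 lower. Of the activators, 4, 2 and 4 of 4 were called lower, whereas the inhibitor Psmf1 was called higher in all 3, by 0.63, 0.30 and 0.35 on the log2 scale (edgeR, adjusted p = 2.96e-05, 0.0336 and 0.0363). In Crabp1 cells this split rested on single libraries. Without Ho2 the 26 calls were 17, with 7 higher and 10 lower (59.9% of all genes were called). Without Wt1 they were 20, with 10 higher and 10 lower (60.4%). Without Wt2 there were 16 higher and 5 lower (60.6%), and without Ho1 19 and 5 (63.8%).

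In Hapln1 cells 8 members were called higher (34.7% of genes) and 17 lower (32.8%). None of 7 beta subunits was higher and 5 were lower, whereas 5 of 12 non-ATPase subunits were higher and 1 lower.

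These splits depended on the scaling, because TMM and library totals place the middle of all genes differently. The median log2 difference of all genes tested was between -0.04 and 0.03 with TMM and between 0.09 and 0.49 with library totals. The median of the members was -0.20 in sinus venosus-like, -0.18 in Epcam, -0.08 in Hapln1, -0.02 in atrial-like, 0.02 in Crabp1, 0.07 in Upk3b and 0.09 in Cdh5 cells with TMM. With library totals it was 0.10, 0.30, 0.27, 0.08, 0.41, 0.31 and 0.32 in the same order, so that the first 4 changed sign.

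With library totals more genes of all kinds were called higher. In atrial-like cells 7 members were higher (18.6% of genes) and 2 lower (9.24%), and in sinus venosus-like cells 15 were higher (38.4%) and 7 lower (13.3%). In Cdh5 cells 33 were higher (45.4%) and 3 lower (26.6%), in Hapln1 cells 32 (52.2%) and 3 (21.1%), and in Crabp1 cells 39 (52.2%) and 2 (20.5%). In Upk3b cells 31 were higher (39% of genes) and 4 lower (21.7%), and in Epcam cells 32 (52%) and 3 (16.9%). Of the 159 calls of members with TMM, summed over the 7 classes, 41 had the other sign with library totals and 16 of those were called in that other direction, beside 2736 and 438 of 56306 calls of all genes.

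The ratio of core to cap UMIs within a sum does not depend on such scaling. In ventricular-like cells it was 2.27 and 2.26 in Wt and 2.43 and 2.15 in Ho, with a mean of 2.28 ± 0.114 (SD, n = 4). This was the highest of the classes. In Hapln1 cells it was 1.98, 1.97, 2.02 and 1.91, with a mean of 1.97 ± 0.0475 (SD, n = 4), and in Crabp1 cells the mean was 2.01 ± 0.0654 (SD, n = 4).

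Between these means lay atrial-like cells with 2.17 ± 0.0938, Cdh5 cells with 2.15 ± 0.0797, sinus venosus-like cells with 2.13 ± 0.0703, Upk3b cells with 2.10 ± 0.108 and Epcam cells with 2.10 ± 0.0412 (SD, n = 4, and n = 3 for Epcam). These SDs are over libraries that all classes share. Within a library the atrial-like ratio was above that of Upk3b cells in each of the 4, by 0.0497 to 0.0840, and above that of sinus venosus-like cells in each of the 4, by 0.0119 to 0.0776. The Cdh5 ratio was above that of Upk3b cells in each of the 4, by 0.0236 to 0.104. The other 7 pairs of these 5 classes changed order between libraries. Within each library the ventricular-like ratio was above that of every other class present. The mean difference from ventricular-like cells was -0.307 for Hapln1, -0.264 for Crabp1 and -0.103 for atrial-like cells, and it was below 0 in all 13 settings for the Epcam and atrial-like classes and in all 14 for the others. Without Ho1 the first 3 were -0.274, -0.244 and -0.0907. No p is given for a sum over chosen members.

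The summed level of all members, on the other hand, changed its order with the scaling. As CPM of all UMIs of the sum, with no further scaling, it was 9744 ± 537 in ventricular-like cells and highest in Crabp1 cells with 12941 ± 693 (SD, n = 4), and in every library all the other classes were above the ventricular-like class. With TMM the ventricular-like level was 11664 ± 803 CPM, above sinus venosus-like cells with 9998 ± 204 CPM and Hapln1 cells with 10741 ± 411 CPM (SD, n = 4). It remained below Upk3b cells, with 12522 ± 214 CPM, in each library.

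**Figure D3:**
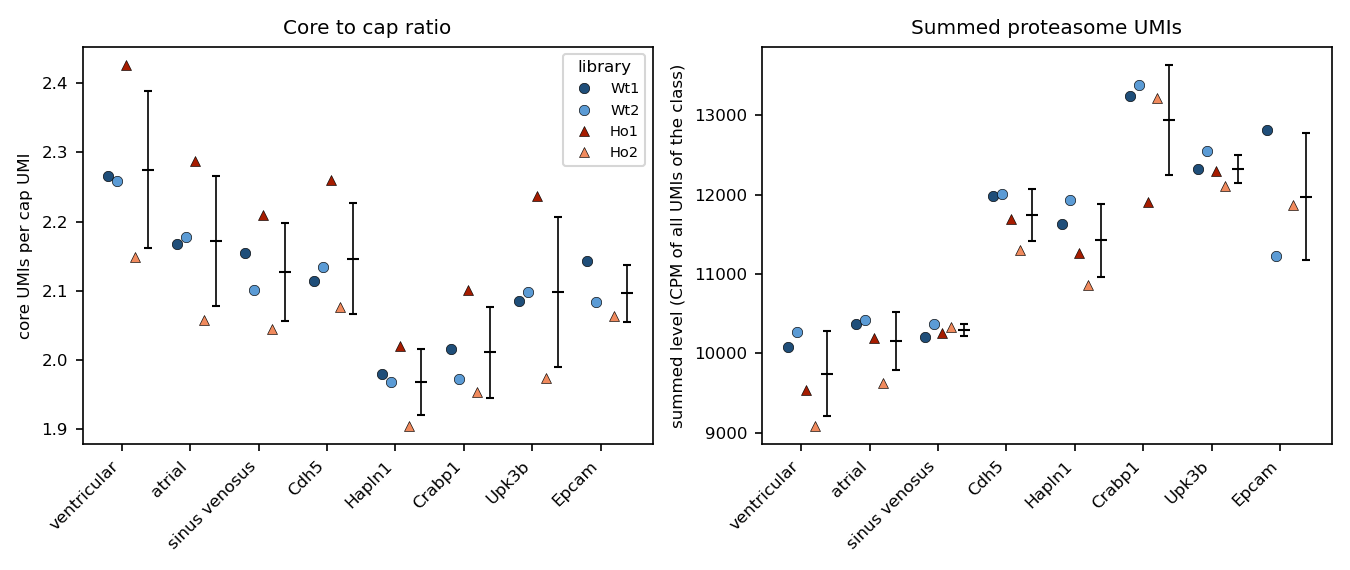
Left, UMIs of core subunits per UMI of cap subunits in each library and class; right, summed proteasome UMIs as CPM of all UMIs of the class, with 1 point for each library (circles Wt, triangles Ho) and the mean ± SD in black. The axes do not start at 0. Ventricular-like cells have the highest mean ratio, 2.28, and Hapln1 cells the lowest, 1.97.

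Genes of the pathway that the naming rule leaves out were compared in the same fit. Of 35 such genes written down, among them ubiquitin genes, ubiquitin receptors and unfoldases, 33 were found and tested. Against ventricular-like cells with TMM 9.09% of them were called higher and 18.2% lower in atrial-like cells, where 12.2% and 14% of all genes were. In sinus venosus-like cells it was 6.06% and 54.5% (21.4% and 25.6% of all genes), in Cdh5 cells 24.2% and 42.4% (33.7% and 35.5%), and in Hapln1 cells 9.09% and 51.5% (34.7% and 32.8%). In Crabp1 cells it was 15.2% and 54.5% (33.4% and 33.8% of all genes), in Upk3b cells 24.2% and 39.4% (27.8% and 30.2%), and in Epcam cells 9.09% and 63.6% (30.8% and 30.6%).

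With library totals more of these genes were called higher than lower in 6 of the 7 classes, as were more of all genes in each class. The shares called higher and lower were 18.2% and 12.1% in atrial-like cells (18.6% and 9.24% of all genes), 51.5% and 15.2% in Cdh5 (45.4% and 26.6%), 54.5% and 12.1% in Hapln1 (52.2% and 21.1%) and 60.6% and 15.2% in Crabp1 cells (52.2% and 20.5%). They were 39.4% and 24.2% in Upk3b cells (39% and 21.7% of all genes), 42.4% and 15.2% in Epcam (52% and 16.9%) and 24.2% and 27.3% in sinus venosus-like cells (38.4% and 13.3%).

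Pomp, which matures the core, was higher in Cdh5 cells by a log2 difference of 0.76 (edgeR, adjusted p = 5.87e-11). Sem1, a small subunit of the cap outside the naming rule, was lower in sinus venosus-like cells, at -0.63, and Vcp, the segregase that feeds the proteasome, at -0.53 (edgeR, adjusted p = 5.97e-08 and 2.84e-07). Nfe2l1, the factor that restores proteasome genes, was at 0.23 in sinus venosus-like cells (edgeR, adjusted p = 0.0452) and did not pass the test in the other 6 classes. These genes were chosen after their values were seen.

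Genes of antigen processing, which often accompany the immunoproteasome, were compared in the same fit. Of 8 such genes 6 were tested, and in Cdh5 cells 3 were called higher than in ventricular-like cells (33.7% of all genes were) and 1 lower (35.5%). Epcam cells also had 3 higher (30.8%) and 1 lower (30.6%), and Hapln1 cells 2 (34.7%) and 1 (32.8%). Atrial-like cells had 1 (12.2%) and 1 (14%), and Upk3b cells 1 (27.8%) and 1 (30.2%). Crabp1 cells had 0 higher (33.4%) and 1 lower (33.8%), and sinus venosus-like cells 0 (21.4%) and 2 (25.6%). B2m, the light chain of class I molecules, was higher in Cdh5 cells by 1.73, H2-D1, a heavy chain, by 4.52 and the peptide transporter Tap1 by 2.27 on the log2 scale (edgeR, adjusted p = 3.97e-15, 2.62e-13 and 0.00148). H2-K1, another heavy chain, was lower in Cdh5 cells, at -1.18 (edgeR, adjusted p = 0.00214). Tapbp and Irf1 did not pass the test there, at 0.21 and -0.05 (edgeR, adjusted p = 0.365 and 0.836).

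The study sequenced single cells to look into how hearts with the Cyp51 allele come to form abnormally. Here the proteasome genes were compared between Ho and Wt within each class. In edgeR fits of the libraries of a class, no member was called at an adjusted p under 0.05 in any of the 7 classes with 4 libraries. None was called in Epcam cells either, where the Ho arm is 1 library with no spread of its own. All genes called came to 0% in ventricular-like, 0.0806% in atrial-like, 0% in sinus venosus-like, Cdh5, Hapln1 and Crabp1, 0.0385% in Upk3b and 0.68% in Epcam cells.

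At an unadjusted p under 0.05 in edgeR there were 4 of 46 members in ventricular-like cells (5.41% of genes), 1 of 46 in Cdh5 (5.14%), 2 of 46 in Hapln1 (6.1%) and 1 of 45 in Upk3b cells (5.15%). There was none in atrial-like (4.1%), sinus venosus-like (5.01%), Crabp1 (4.31%) and Epcam cells (5.91%). These counts moved with single libraries and with the cells used. Without Ho1 there were 24 of 46 in ventricular-like (8.94% of genes), 11 of 46 in Hapln1 (10.4%), 10 of 46 in atrial-like (10.2%) and 5 of 47 in Cdh5 cells (9.61%). In ventricular-like cells there was 1 of 46 without Wt1 (5.64% of genes) and 1 without Wt2 (6.14%), and there were 3 without Ho2 (5.49%) and 16 of 46 (9.77% of genes) in cells gated on 8 marker genes alone. DESeq2 called no member in any class either, where it called between 0% (sinus venosus-like) and 0.476% (Crabp1) of all genes. At an unadjusted p under 0.05 it had 3 members in ventricular-like (1.84% of genes), 1 in Cdh5 (1.83%) and 1 in Hapln1 cells (1.64%), and none in atrial-like (1.06%), sinus venosus-like (1%), Crabp1 (3.87%), Upk3b (1.05%) and Epcam cells (1.78%).

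In ventricular-like cells the members nevertheless leaned one way. The fitted log2 change was below 0 for 43 of 46 members, with a median of -0.14 against 0.00 for all genes tested. Both Ho libraries lay below both Wt libraries for 26 members, 8 of the core and 13 of the cap, beside 17.4% of all genes, and both lay above for 1 (17.9%). The 26 share their libraries and tend to move together, so they do not count as 26 observations. When each library was left out in turn, between 36 and 44 members were below 0, and the median was -0.22 without Ho1 and -0.08 without Ho2.

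The summed level in ventricular-like cells was 10079 and 10272 CPM of all UMIs in Wt1 and Wt2 and 9535 and 9088 in Ho1 and Ho2. The difference of the means was -864, and with 2 libraries against 2 an exact two-sided permutation test cannot go below a p of 0.33. It was -1087 without Ho1 and -641 without Ho2.

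Hapln1 cells had the same count of 26 members with both Ho libraries below both Wt, 8 of the core and 10 of the cap, beside 17.9% of genes, and a median of -0.08. The count was 8 in atrial-like (15.7% of genes), 5 in sinus venosus-like (17%), 9 in Cdh5 (17.6%), 7 in Crabp1 (16.2%) and 8 in Upk3b cells (16.3%). Both Ho libraries lay above both Wt for 2 members in Hapln1 (17.7% of genes), 2 in atrial-like (15.9%), 9 in sinus venosus-like (17%), 3 in Cdh5 (17.2%), 0 in Crabp1 (16.3%) and 8 in Upk3b cells (16.4%). The median log2 change was -0.04, 0.02, -0.03, -0.11 and -0.01 in atrial-like, sinus venosus-like, Cdh5, Crabp1 and Upk3b cells, and 0.11 in the 3 libraries of Epcam cells, where the lone Ho2 is assumed to vary like the Wt libraries. The change was below 0 for 40 of 46 members in Hapln1, 38 of 46 in Crabp1, 35 of 45 in atrial-like, 30 of 46 in Cdh5 and 24 of 45 in Upk3b cells, and above 0 for 28 of 45 in sinus venosus-like and 35 of 45 in Epcam cells. Some of these medians rested on 1 library. In Crabp1 cells the median was 0.00031 without Ho1, -0.0015 without Wt1, -0.24 without Ho2 and -0.20 without Wt2. In atrial-like cells it was -0.14 without Ho1 and 0.03 without Ho2, in Cdh5 cells -0.06 and 0.01, and in Upk3b cells -0.02 and 0.03. It was -0.12 without Ho1 and -0.06 without Ho2 in Hapln1 cells, and in sinus venosus-like cells between 0.0048 and 0.04 without any one library. With library totals the medians were -0.12 in ventricular-like, -0.09 in Hapln1, -0.08 in Crabp1, -0.07 in Cdh5, -0.06 in atrial-like, -0.04 in Upk3b and 0.01 in sinus venosus-like cells, and that of Epcam cells turned to -0.03. The median of all genes moved on that scale to -0.04 in Cdh5 and -0.18 in Epcam cells and was between -0.03 and 0.02 in the other classes.

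Ho2 also had the largest mitochondrial share of UMIs in each of the 7 classes with 4 libraries. It was 2.47% in ventricular-like cells, 1.47% against 1.06% to 1.14% in Hapln1, 2.08% against 1.30% to 1.37% in atrial-like and 1.67% against 1.10% to 1.23% in Cdh5 cells. In these 4 classes and in Upk3b cells the summed level of the members was lowest in Ho2 as well. It was not in sinus venosus-like cells, where Ho2 had 10333 CPM of all UMIs against 10201 in Wt1, nor in Crabp1 cells, where it had 13220 against 11908 in Ho1. As CPM of UMIs without mitochondrial genes, the Ho minus Wt difference of the summed level in ventricular-like cells was -835, beside -864 with them.

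**Figure D4:**
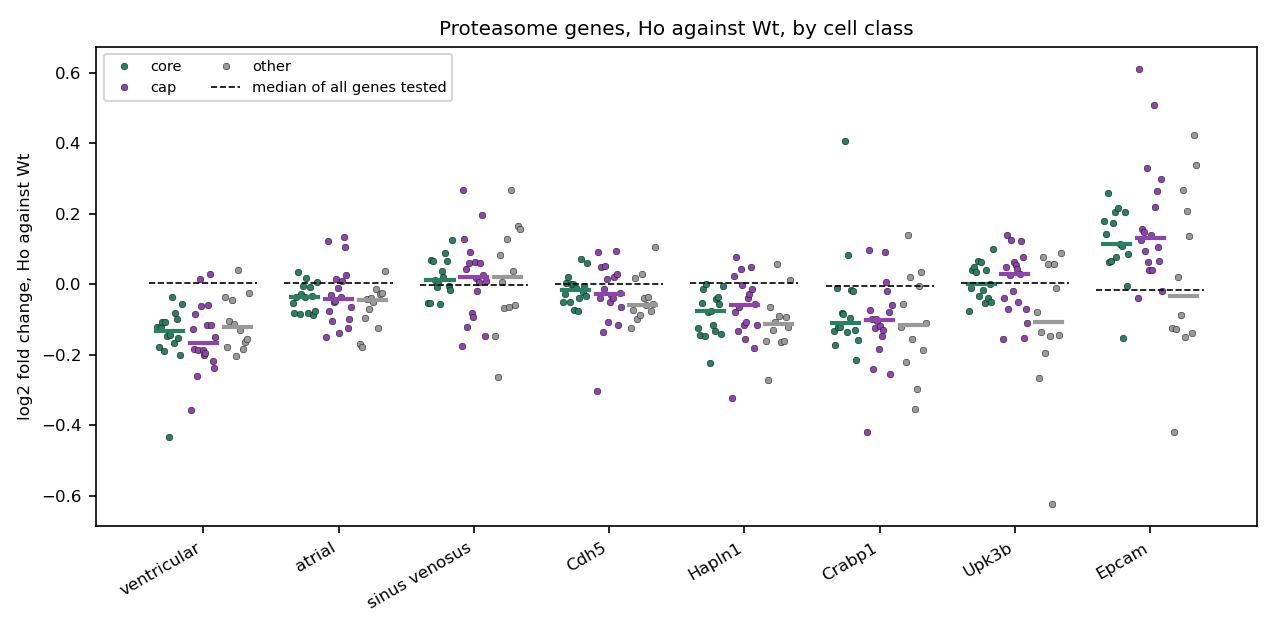
Fitted log2 fold change of each tested proteasome gene, Ho against Wt, in the 8 cell classes, with 1 point a gene for core, cap and other members, their medians as coloured bars and the median of all genes tested as a dashed line. In ventricular-like cells 43 of 46 points lie below 0, and no point in any class passed the adjusted threshold.

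No difference of the genotype change between classes was called for any of 47 members tested in one fit with the library as a term (edgeR, 19 of 14720 genes called, 0.129%), and 0 members had an unadjusted p under 0.05 there (4.77% of genes). DESeq2 also called 0 of 47 (0.523% of genes), with 1 at an unadjusted p under 0.05 (3.82% of genes). The core to cap ratio differed between Ho and Wt by between -0.0495 and 0.0449 in the 8 classes, while Ho1 had the highest and Ho2 the lowest ratio in each of the 7 classes that held both. The 2 Ho libraries thus lay on either side of the Wt libraries, and leaving out Ho1 or Ho2 changed the sign of the difference in each of these 7.

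Adrm1, the ubiquitin receptor Rpn13 of the cap, had the lowest p between Ho and Wt in 5 of the 7 classes with 4 libraries. In ventricular-like cells its level was 118 and 126 CPM in Wt1 and Wt2 and 99.3 and 94.4 CPM in Ho1 and Ho2. In Cdh5 cells it was 138 and 141 CPM in Wt and 114 and 114 CPM in Ho, and in Hapln1 cells 122 and 130 CPM in Wt and 97.5 and 105 CPM in Ho. Both Ho values lay below both Wt values in these classes.

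The log2 change was -0.36 in ventricular-like (SE 0.0927), -0.30 in Cdh5 (SE 0.0717) and -0.32 in Hapln1 cells (SE 0.0791), with adjusted p of 0.613, 0.579 and 0.378 in edgeR, so none passed the test. In Crabp1 cells the values were 146 and 140 CPM in Wt and 96.8 and 117 CPM in Ho, with a log2 change of -0.42 (SE 0.189, edgeR, adjusted p = 1.00). Atrial-like cells had 113 and 124 CPM in Wt and 112 and 103 CPM in Ho, without overlap.

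Upk3b cells had 131 and 134 CPM in Wt and 117 and 121 CPM in Ho. Sinus venosus-like cells overlapped, with 93.9 and 115 CPM in Wt and 81.4 and 105 CPM in Ho, and Epcam cells had 112 and 80.4 CPM in Wt and 93.4 CPM in Ho2. Both Ho libraries were below both Wt libraries in 6 of the 7 classes with 4 libraries, which 1.08% of the 9330 genes tested in all 7 also reached. The classes share the same 4 libraries, so this is not 6 separate observations. Without each library in turn the ventricular-like log2 change was between -0.38 and -0.32, and its adjusted p in edgeR between 0.217 and 0.806. In the test of a genotype effect that differs between classes Adrm1 had an unadjusted p of 0.412 in edgeR.

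The bases before the annotated start of Adrm1 on chromosome 2 are shown because that gene had the lowest p in 5 of those classes. They come from the RefSeq window on GRCm38.p6 (chr2:180171338-180171484, plus strand), ended before the gene's first base. Capitals mark the match to TGANNNNGC, whose first base is 162 bases before the window's start site. A CCAAT lies 65 bases before that site, beyond the printed stretch.

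Adrm1: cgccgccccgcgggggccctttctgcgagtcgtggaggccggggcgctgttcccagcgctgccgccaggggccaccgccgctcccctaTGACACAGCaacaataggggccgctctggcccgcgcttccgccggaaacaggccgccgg

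Psmc4, an ATPase, and Psmd7, a subunit of the lid, were named after their values were seen. They had both Ho below both Wt libraries in 5 of 7 classes, and 2.90% of the 9330 genes did in at least 5. Their ventricular-like log2 changes were -0.26 and -0.24 (edgeR, adjusted p = 0.810 and 0.883). In the remaining classes the lowest p belonged to Psmc1 in sinus venosus-like cells, at 0.27 (SE 0.142), and in the 3 libraries of Epcam cells, at 0.61 (SE 0.378), and to Psmf1 in Upk3b cells, at -0.62 (SE 0.238). The adjusted p of these was 0.976, 1.00 and 0.832 in edgeR.

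**Figure D5:**
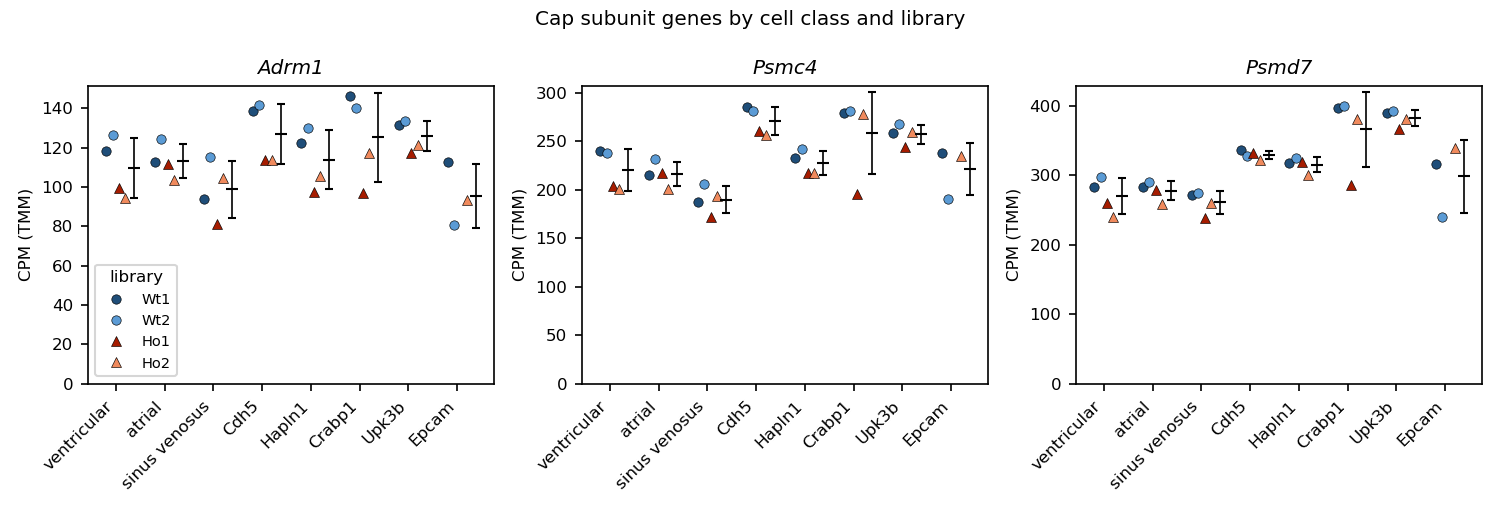
Level in CPM scaled by TMM of 3 cap genes, Adrm1, Psmc4 and Psmd7, in each of the 8 cell classes, with 1 point for each library (circles Wt, triangles Ho) and the mean ± SD over libraries in black. For Adrm1 both triangles lie below both circles in 6 of 7 classes with 4 libraries, the exception being the sinus venosus-like class.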

How the data were processed

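The authors counted UMIs with Cell Ranger 6.1.1 on mm10 (GRCm38) and deposited raw counts per gene and barcode for each library, without normalization. The study used Seurat 4.1.0, whose limits on cells were kept here: 500 to 50000 UMIs, 500 to 6000 genes and at most 20% mitochondrial counts. Doublets were called with Scrublet in scanpy 1.11.5 at 0.8% per 1000 cells. SCTransform in Seurat 5.3.0 gave normalized values, which were integrated by reciprocal PCA on 3000 genes, and Leiden clusters were taken from 30 components at a resolution of 0.8, without the members or pathway genes. A cluster was named where at least 3 markers of 1 class, its leading marker included, were raised 2 times and no other class had more of its 10 leading genes. It stayed unnamed where its median depth was under that of its libraries divided by 3, whatever its markers, or where over 90% of it was 1 library.

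Counts were summed per library and class with at least 20 cells and tested with edgeR 4.0.16 in R 4.3.3 (quasi-likelihood test, TMM, filterByExpr, Benjamini-Hochberg adjustment over all genes tested, threshold 0.05), in place of the study's per-cell likelihood ratio test, which treats cells as replicates. Whether the libraries of a genotype are separate litters is not stated, so p-values between Ho and Wt measure the spread between 2 libraries. Those against ventricular-like cells come from 1 fit over all sums. They measure how far the differences between classes vary over the same 4 libraries, or 3 for Epcam cells. The members, lists and classes were chosen with earlier results of these data known. Named were the highest and lowest member of each role, the activators and immunoproteasome subunits, the 5 members with the widest spread between classes, the lowest p of each comparison between genotypes and the members beside the UMI limit, and any other name is said to have been chosen after its values were seen. Alternatives were DESeq2 1.42.0, RLE scaling, library totals, other filters, blocks, left-out libraries, other clusterings, cells gated on 8 marker genes, cells thinned to 2000 UMIs, UMIs without mitochondrial genes and other core or cap lists. The tests were also run on simulated sums in which all libraries and classes shared 1 mean profile apart from genes changed on purpose. These data differ from that setting, so the run is not used here as support. Gene positions are of GENCODE on GRCm38. Protein sequences were not used here. One gene of the antigen processing list is not reported here.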

Additional observations from a re-analysis of the deposited data

Results flagged for a closer look

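Psmb8, the catalytic immunoproteasome subunit with at most 0.460 CPM in any sum of the 8 classes, was measured in 2 unnamed clusters that the comparisons do not use. In cluster 28, of 172 cells with raised blood and macrophage genes, it was at 102 CPM in Wt1, 76.2 in Wt2, 52.3 in Ho1 and 11.8 CPM in Ho2, from 27, 45, 84 and 16 cells. In cluster 5, of 1582 cells with Cd34, Sox17, Ptprb and Klf2 among the leading genes, it was at 1.50 CPM in Wt1, 0.845 in Wt2, 0.687 in Ho1 and 1.14 CPM in Ho2. Of the 294 UMIs of Psmb8, 247 were in cluster 28 and 27 in the 8 classes, so the values of cluster 5 rest on few UMIs. These values are CPM of all UMIs of the cluster's cells in a library. Whether they differ between the genotypes was not tested.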

How the results depend on the processing

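No member was called between Ho and Wt in any class under any alternative run, nor in the test of a genotype effect that differs between classes. Of the members' calls against ventricular-like cells, 41 of 159 changed sign with library totals. The counts of members called against ventricular-like cells moved most for atrial-like cells, where 8 calls (26.2% of all genes were called) were 4 without a filter (14.6%), 5 with low-depth clusters kept (25.8%), 4 at a resolution of 1.2 (21.6%), 1 with cells gated on marker genes alone (18.7%), 3 with cells thinned to 2000 UMIs (13.8%) and 2 to 4 without a library (17.5% to 20.7%). At a resolution of 0.4 no atrial-like class was found. Thinning, which leaves fewer UMIs, gave 10 calls in place of 27 in sinus venosus-like (25.1% of all genes in place of 47%), 14 for 25 in Hapln1 (51.6% for 67.5%), 13 for 26 in Crabp1 (52.2% for 67.2%), 15 for 24 in Upk3b (34.8% for 58%) and 14 for 25 in Epcam cells (41.5% for 61.5%). A resolution of 0.4 gave 11 in sinus venosus-like cells (32.1%), library totals 41 in Crabp1 cells (72.6%), and leaving out a library 17 to 24 in Crabp1 cells (59.9% to 63.8%). The cause of these shifts was not tested.

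The core to cap ratio of each class stayed below that of ventricular-like cells throughout. Its difference moved by more than the spread between libraries to -0.0506 in atrial-like cells (main -0.103) and -0.135 in Upk3b cells (main -0.177) with marker genes alone, to -0.203, -0.202 and -0.249 in sinus venosus-like (main -0.148), Upk3b and Epcam cells (main -0.128) with thinning, and to -0.0883 and -0.188 in sinus venosus-like and Upk3b cells without the core and cap subunits of most summed UMIs, Psma7 and Psmd7. In Upk3b cells it was -0.164 with low-depth clusters kept and -0.158 without immunoproteasome subunits, and in Crabp1 cells -0.327 without integration (main -0.264). The ratio between Ho and Wt in Crabp1 cells, 0.0334, was -0.0802 without integration and -0.104 with marker genes alone. The summed level between Ho and Wt in CPM of all UMIs was -365 and -216 in sinus venosus-like cells at resolutions of 0.4 and 1.2 (main 6.76) and -398 in Upk3b cells with thinning (main -231), and Hapln1 minus ventricular-like was 1999 with marker genes alone (main 1679).

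The replicate numbers pair nothing in the labels, and the correlation of deviations of same-numbered libraries was between -0.294 and 0.0502 in 7 classes. With the number as a replicate block, or with the numbers crossed, which was added after seeing the data, 0 members were called in each of the 7 classes, where the block called between 0% and 0.847% of all genes and the crossed numbers between 0.0296% and 1.76%. The block had no value for Epcam cells, which lack Ho1. With 2 libraries a genotype, small changes are beyond these tests, and the sums of Epcam, sinus venosus-like and Upk3b cells and that of Crabp1 cells in Ho1, with 2131418 UMIs, are the shallowest.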

Other observations

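Of the 294 UMIs of Psmb8 in all cells used, 247 (84.0%) came from the 172 cells of cluster 28, and of the 126 UMIs of Psmb9, 72 (57.1%) did. Psmb10, whose product joins the same particle, had 14805 UMIs, of which 681 (4.60%) came from that cluster. As CPM of all UMIs, its level there was 155 and 187 in the Wt and 154 and 157 in the Ho libraries, above the 62.6 to 69.6 CPM of ventricular-like cells on the same scale. In the 13 unnamed clusters the summed level of all members ran from 6769 to 14080 CPM of all UMIs, and the ratio of core to cap UMIs from 1.47 to 2.56, which is a wider range than that of the 8 class means. Among them, clusters 4, 18, 19, 23 and 24 were unnamed for low depth, with medians of 1370 to 2618 UMIs per cell. Cluster 26 came mostly from Ho1. Single clusters of this kind are not like the class means, and the part of depth in the wider range was not tested.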
